A study of Mus musculus with 8 samples.

Results

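The 28 genes described here are a set of mouse DNA replication and S-phase genes, taken by symbol from the deposited table of RNA-seq counts. The table lists 24421 gene symbols and all 28 were in it. All 28 were also among the 13722 genes that passed the filter on low counts and were tested. The set holds the 6 subunits of the MCM helicase (Mcm2 to Mcm7), 6 helicase loading and activating factors (Mcm10, Cdc6, Cdc45, Cdt1, Gins1 and Gins2) and 3 genes of S-phase entry (Ccne1, Ccne2 and E2f1). It also holds 4 polymerase and fork genes (Pcna, Pola1, Pole and Fen1), 4 genes of nucleotide supply and uracil repair (Rrm1, Rrm2, Tyms and Ung) and 5 genes of chromatin replication (Slbp, Chaf1a, Chaf1b, Uhrf1 and Dnmt1).

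The cells came from C57BL/6 bone marrow and expressed the leukaemia fusion MLL-AF10, in 2 lines. MATIP cells carry MLL-AF10 with floxed Tip60 on both alleles (Tip60 flox/flox) and Cre-ERT2, a Cre recombinase that enters the nucleus on binding 4-hydroxytamoxifen (4-OHT). MAflox cells are named in the labels only as MLL-AF10 flox cells. Neither the presence of Cre-ERT2 in them nor the floxed sequence is stated. Each line was cultured in Methocult medium that held GM-CSF, SCF and IL-3 and received 100 nM 4-OHT or ethanol (EtOH) for 4 days. The 4 groups, MATIP 4-OHT, MATIP EtOH, MAflox 4-OHT and MAflox EtOH, had 2 libraries each. Nothing in the labels ties the 2 libraries of a group to separate cultures. The p-values therefore cover the spread between these libraries only, which may be technical. What else differs between the lines is not stated.

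Before DNA is copied, the MCM ring is loaded onto origins by the origin recognition complex with Cdc6 and Cdt1. In S phase the ring is activated by Cdc45 and the GINS complex and becomes the moving helicase, behind which the polymerases work on the clamp Pcna. E2F transcription factors, held back by the retinoblastoma family until cyclin-dependent kinases act, drive many of these genes, so that their transcripts are abundant in dividing progenitors and scarce in myeloid cells that have left the cycle.

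Libraries held 41101309 to 57312490 counts, with 14380 to 15822 genes detected. Levels are given in CPM, the counts of a gene per 1000000 counts of its library, with the library total scaled by TMM. Kat5, the gene of Tip60, had 8.11 and 8.32 CPM in MATIP 4-OHT cells, against 41.1 and 41.2 CPM in MATIP EtOH cells. It had 57.5 and 62.5 CPM in MAflox 4-OHT cells, against 43.7 and 41.2 CPM in MAflox EtOH cells. The libraries labelled MATIP 4-OHT were therefore the lowest in Kat5, while 4-OHT was followed by a higher level in MAflox cells. Kat5 shares 426 exon bases with Rnaseh2c on the opposite strand. Of 10 myeloid progenitor markers every one was detected in each library, including Mpo and Kit. The summed level of 6 erythroid markers was at most 1.96 CPM in any library, with Hba-a1 and Hbb-bs at 0 in all 8. The sum of 6 stromal markers was 6.26 and 7.73 CPM in MATIP 4-OHT libraries and at most 2.26 CPM in the other 6, with Dcn at 0 in all 8 and the 3 tested markers called higher in MATIP cells. The sum of 6 lymphoid markers was 108 and 116 CPM in MATIP 4-OHT libraries, 1.83 and 1.29 CPM in MATIP EtOH libraries, 8.79 and 6.95 CPM in MAflox 4-OHT libraries and 0.363 and 0.570 CPM in MAflox EtOH libraries. Il7r made up 107 and 116 CPM of it in MATIP 4-OHT libraries, while Cd3e and Rag1 were at 0 in all 8. The sum of 6 mast cell and basophil markers was 3.57 to 5.89 CPM in MATIP libraries and 33.0 to 38.1 CPM in MAflox libraries.

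Promoter sequences show how unevenly the E2F-type letters are spread over the set. RefSeq windows on GRCm38.p6, running from 250 bases before to 50 bases after a start site, were found for 23 of the 28 genes. The letters TTTGGCGC, TTTCCCGC, TTTGCCGC or TTTCGCGC, read on either strand, were present for 9 of the 23 (39.1%), against 4.54% of the 10391 tested genes that have a window. CCAAT was present for 65.2% of the members with a window and 42.9% of the tested genes, and TTTGAA, the core of the cell-cycle homology region, for 17.4% and 14.6%. The 9 genes with E2F-type letters were Mcm3, Mcm5, Mcm6, Mcm7, Cdc6, Cdt1, Pola1, Uhrf1 and Dnmt1. A match is a description of letters and not a bound site. Windows follow the RefSeq start site, and those of E2f1 and Cdc6 lie inside the annotated gene. So do the windows that hold the matches of Mcm7, Dnmt1 and Uhrf1. The matches of Cdc6, Mcm7, Dnmt1 and Uhrf1 thus lie after the annotated start of the gene. Those of Mcm3 and Cdt1 lie after the RefSeq start site. A missing match therefore need not hold for the whole promoter.

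The 250 bases before the start site are printed 5′ to 3′ for 4 genes, with the E2F-type letters in capitals. Mcm6 and Mcm5 are shown as helicase subunits with 3 and 2 matches, Pola1 as a polymerase with 1, and Mcm2 as the helicase subunit with none in its window and the lowest log2 fold change of the set in MATIP cells. Where a match on each strand overlaps, as in Mcm6 and Mcm5, the capitals run together. GENCODE M21 annotates no gene over any of the 4 stretches, which end 1 to 61 bases before the gene's annotated start. The Mcm6 stretch is chr1:128359706-128359955 on the minus strand, the Mcm5 stretch is chr8:75109259-75109508 on the plus strand, the Pola1 stretch is chrX:93632156-93632405 on the minus strand and the Mcm2 stretch is chr6:88898781-88899030 on the minus strand.
Mcm6: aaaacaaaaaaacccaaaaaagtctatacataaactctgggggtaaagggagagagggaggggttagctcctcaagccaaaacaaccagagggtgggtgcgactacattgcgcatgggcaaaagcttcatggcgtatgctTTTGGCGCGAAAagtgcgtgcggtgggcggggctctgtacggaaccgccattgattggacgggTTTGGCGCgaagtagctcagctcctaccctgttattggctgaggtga
Mcm5: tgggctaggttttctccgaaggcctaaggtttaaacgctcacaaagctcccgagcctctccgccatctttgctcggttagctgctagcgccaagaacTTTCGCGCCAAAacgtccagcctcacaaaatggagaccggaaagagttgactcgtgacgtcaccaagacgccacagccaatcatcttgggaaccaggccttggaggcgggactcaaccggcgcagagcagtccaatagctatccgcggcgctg
Pola1: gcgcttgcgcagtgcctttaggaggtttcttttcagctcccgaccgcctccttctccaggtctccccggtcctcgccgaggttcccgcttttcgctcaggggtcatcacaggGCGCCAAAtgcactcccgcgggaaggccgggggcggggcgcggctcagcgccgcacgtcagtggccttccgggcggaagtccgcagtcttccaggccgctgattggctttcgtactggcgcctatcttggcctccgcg
Mcm2: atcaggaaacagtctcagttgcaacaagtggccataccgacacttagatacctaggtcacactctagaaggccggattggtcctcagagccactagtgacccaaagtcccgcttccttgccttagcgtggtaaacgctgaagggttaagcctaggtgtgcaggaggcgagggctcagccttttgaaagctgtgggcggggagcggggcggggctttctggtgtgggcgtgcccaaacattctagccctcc

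In MATIP cells 27 of the 28 genes fell with 4-OHT, 20 of them by at least 2-fold in the fit as reported. Genes near 2-fold crossed that line over other settings. Mcm6, for example, ran from -1.23 to -0.95 and Pole from -1.15 to -0.70 on the log2 scale. All 28 log2 fold changes were below 0 in the fit as reported, and that of E2f1 ran from -0.32 to 0.03 over other settings. With no log2 fold change above 0, the edgeR fit could call 0 genes higher at any threshold. DESeq2 also called 0 higher. Over all tested genes 38.6% were called lower and 37.5% higher, and 14.1% were lower by at least 2-fold. The median log2 fold change was -1.19 over the 28 genes and 0.00 over all genes. In MAflox cells 19 of the genes fell and 5 rose with 4-OHT, where 32.1% of all genes were called lower and 33.1% higher. The 5 higher calls were 3 without MAflox EtOH replicate 2, 2 with scaling by library total alone and 1 with a correction for transcript length and GC content. The 28 genes had a median of -0.34 there, against 0.02 for all genes, and 2 (Pole and Dnmt1) were lower by at least 2-fold, against 8.29% of all genes. Calls are edgeR quasi-likelihood tests with a Benjamini-Hochberg adjusted p under 0.05 over all 13722 genes, and fold changes are 4-OHT over EtOH with their standard errors.

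The direct comparison of the lines, the log2 fold change in MATIP minus that in MAflox, was called lower for 25 of the 28 genes and higher for 2, with E2f1 not called. The background was 33.6% lower and 28.3% higher, and the median difference was -0.88 over the 28 genes and -0.03 over all. In 25 of the 28 genes both MATIP 4-OHT libraries lay below the other 6 libraries, as they did for 29.1% of all genes. The exceptions were Pole and Dnmt1, which were lowest in MAflox 4-OHT cells, and E2f1. Summed over the 28 genes, MATIP 4-OHT libraries had 2926 and 2948 CPM and MATIP EtOH libraries 6448 and 6301 CPM. The MAflox 4-OHT libraries had 4988 and 5132 CPM and the MAflox EtOH libraries 6445 and 6465 CPM. In bulk RNA, fewer cycling cells and less of these transcripts per cell cannot be told apart.

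**Figure D1:**
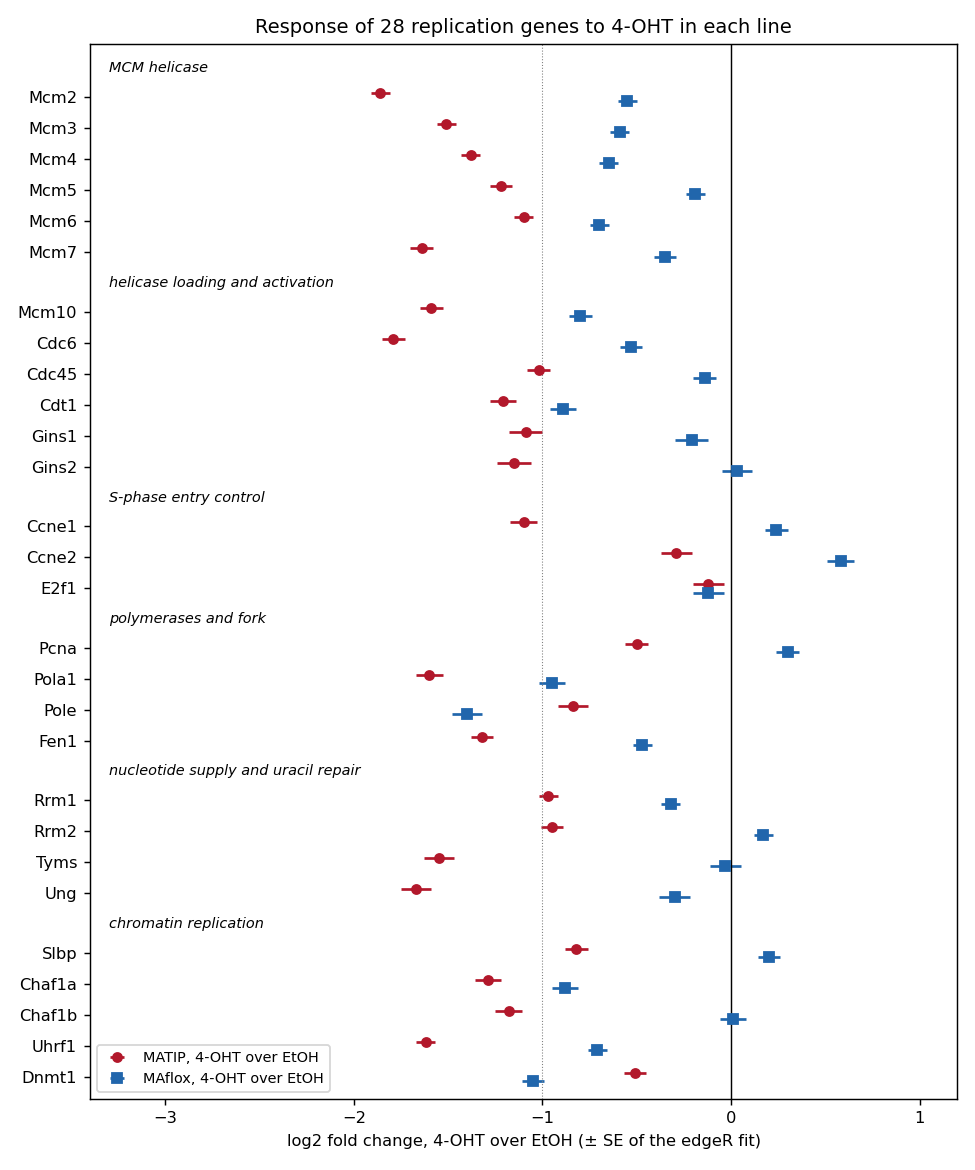
Log2 fold change with 4-OHT over EtOH (x axis) for each of the 28 genes, grouped by role down the page, in MATIP cells (circles) and MAflox cells (squares), with bars of 1 standard error from the edgeR fit. The MATIP values lie left of the MAflox values for 25 called genes, whereas Pole and Dnmt1 lie the other way round and E2f1 coincides.

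With EtOH alone the 28 genes lay closer together in the lines, although the lines differed strongly elsewhere. The Y-linked Ddx3y had 0.0870 and 0.100 CPM in MATIP EtOH libraries and 76.8 and 73.4 CPM in MAflox EtOH libraries. Xist, the RNA of the inactive X chromosome, had 364 and 408 CPM in MATIP EtOH libraries and 0.272 and 0.0760 CPM in MAflox EtOH libraries. The progenitor marker Cd34 had 15.5 and 11.9 CPM in MATIP EtOH libraries and 128 and 134 CPM in MAflox EtOH libraries. Effects of these differences and of the Tip60 alleles on the response to 4-OHT cannot be told apart between the lines. MATIP EtOH cells were higher than MAflox EtOH cells for 6 of the 28 genes and lower for 5, where the background was 20.3% and 11.7%. The log2 differences ran from -0.32 (Ccne2) to 0.30 (Chaf1a). The 6 higher genes were Cdc6, Cdt1, E2f1, Chaf1a, Uhrf1 and Dnmt1, and the 5 lower ones were Mcm7, Ccne2, Pcna, Rrm1 and Rrm2. Without MAflox EtOH replicate 2 there were 3 higher and 1 lower, and the lower calls were 2 without MAflox EtOH replicate 1 or MATIP EtOH replicate 1 and 1 without MATIP EtOH replicate 2.

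Markers of maturing myeloid cells moved with the same treatment in both lines. The summed level of 10 mature neutrophil markers was 33612 and 37165 CPM in MATIP 4-OHT libraries, against 731 and 868 CPM in MATIP EtOH libraries. It was 49088 and 52496 CPM in MAflox 4-OHT libraries, against 209 and 204 CPM in MAflox EtOH libraries. Each of the 10 neutrophil markers and all 10 monocyte and macrophage markers rose in each line. The summed monocyte and macrophage level was 23707 and 24801 CPM in MATIP 4-OHT libraries and 614 and 580 CPM in MATIP EtOH libraries, and 5553 and 5664 CPM in MAflox 4-OHT libraries and 344 and 373 CPM in MAflox EtOH libraries. The myeloid progenitor sum was 5827 and 6151 CPM in MATIP 4-OHT libraries and 16911 and 17268 CPM in MATIP EtOH libraries, and 11245 and 11255 CPM in MAflox 4-OHT libraries and 11558 and 11333 CPM in MAflox EtOH libraries. Of the 10 progenitor markers, 8 were lower and 2 higher in MATIP cells, and 5 were lower and 4 higher in MAflox cells. The part of these marker changes in the levels of the 28 genes was not tested.

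The MCM helicase fell as a whole in both lines. All 6 subunits were lower with 4-OHT in MATIP cells, by 2.14-fold (Mcm6) to 3.64-fold (Mcm2), and all 6 were lower in MAflox cells, by 1.14-fold (Mcm5) to 1.62-fold (Mcm6). Mcm2 had 98.6 and 98.4 CPM in MATIP 4-OHT cells and 362 and 354 CPM in MATIP EtOH cells, and 258 and 249 CPM in MAflox 4-OHT cells and 366 and 375 CPM in MAflox EtOH cells. Both EtOH groups stood well apart from both 4-OHT groups, and the 4-OHT groups did not overlap each other. The log2 fold change of Mcm2 was -1.86 ± 0.05 in MATIP cells (adjusted p = 2.32e-16, edgeR with Benjamini-Hochberg adjustment) and -0.55 ± 0.05 in MAflox cells (adjusted p = 2.18e-08). The difference was -1.31 ± 0.07 (adjusted p = 2.92e-11).

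The subunits did not fall in proportion. Mcm6 had 273 and 269 CPM in MATIP 4-OHT cells and 590 and 568 CPM in MATIP EtOH cells, and 382 and 376 CPM in MAflox 4-OHT cells and 619 and 610 CPM in MAflox EtOH cells. It had the least negative MATIP fold change and the most negative MAflox fold change of the 6 subunits, so its difference, -0.40 ± 0.07, was the smallest in size of the 6. With the length and GC correction Mcm4 (-0.72) was more negative than Mcm6 (-0.63) in MAflox cells. The corrected Mcm6 difference was -0.60, still the smallest in size of the 6. Mcm5 had 193 and 195 CPM in MATIP 4-OHT cells and 461 and 442 CPM in MATIP EtOH cells, and 412 and 439 CPM in MAflox 4-OHT cells and 479 and 489 CPM in MAflox EtOH cells. In MAflox cells its log2 fold change was -0.19 ± 0.05 (adjusted p = 0.00562), a call that was lost without MAflox 4-OHT replicate 1 (adjusted p = 0.0728) or MAflox EtOH replicate 2 (adjusted p = 0.0541). The other subunits, Mcm3, Mcm4 and Mcm7, had log2 fold changes of -1.51, -1.38 and -1.64 in MATIP cells and -0.59, -0.65 and -0.35 in MAflox cells.

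Ratios within a library do not depend on its scaling, though the pairs of genes were chosen after the values were seen and carry no test. The ratios are not corrected for transcript length and GC content, a correction that moved some MAflox values. The count of Mcm6 over that of Mcm2 was 2.77 and 2.73 in MATIP 4-OHT libraries and 1.63 and 1.60 in MATIP EtOH libraries, and 1.48 and 1.51 in MAflox 4-OHT libraries and 1.69 and 1.63 in MAflox EtOH libraries. The ratio of Mcm5 to Mcm2 was 1.96 and 1.98 in MATIP 4-OHT libraries and 1.27 and 1.25 in MATIP EtOH libraries, and 1.60 and 1.77 in MAflox 4-OHT libraries and 1.31 and 1.30 in MAflox EtOH libraries. The balance within one hexamer's transcripts thus moved with 4-OHT, towards Mcm6 in MATIP cells and away from it in MAflox cells, and towards Mcm5 in both lines. The exons of Mcm7 also hold Mir25 and Mir93 and share 321 bases with Ap4m1 and 64 with Cops6 on the opposite strand, which unstranded counting could not separate.

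**Figure D2:**
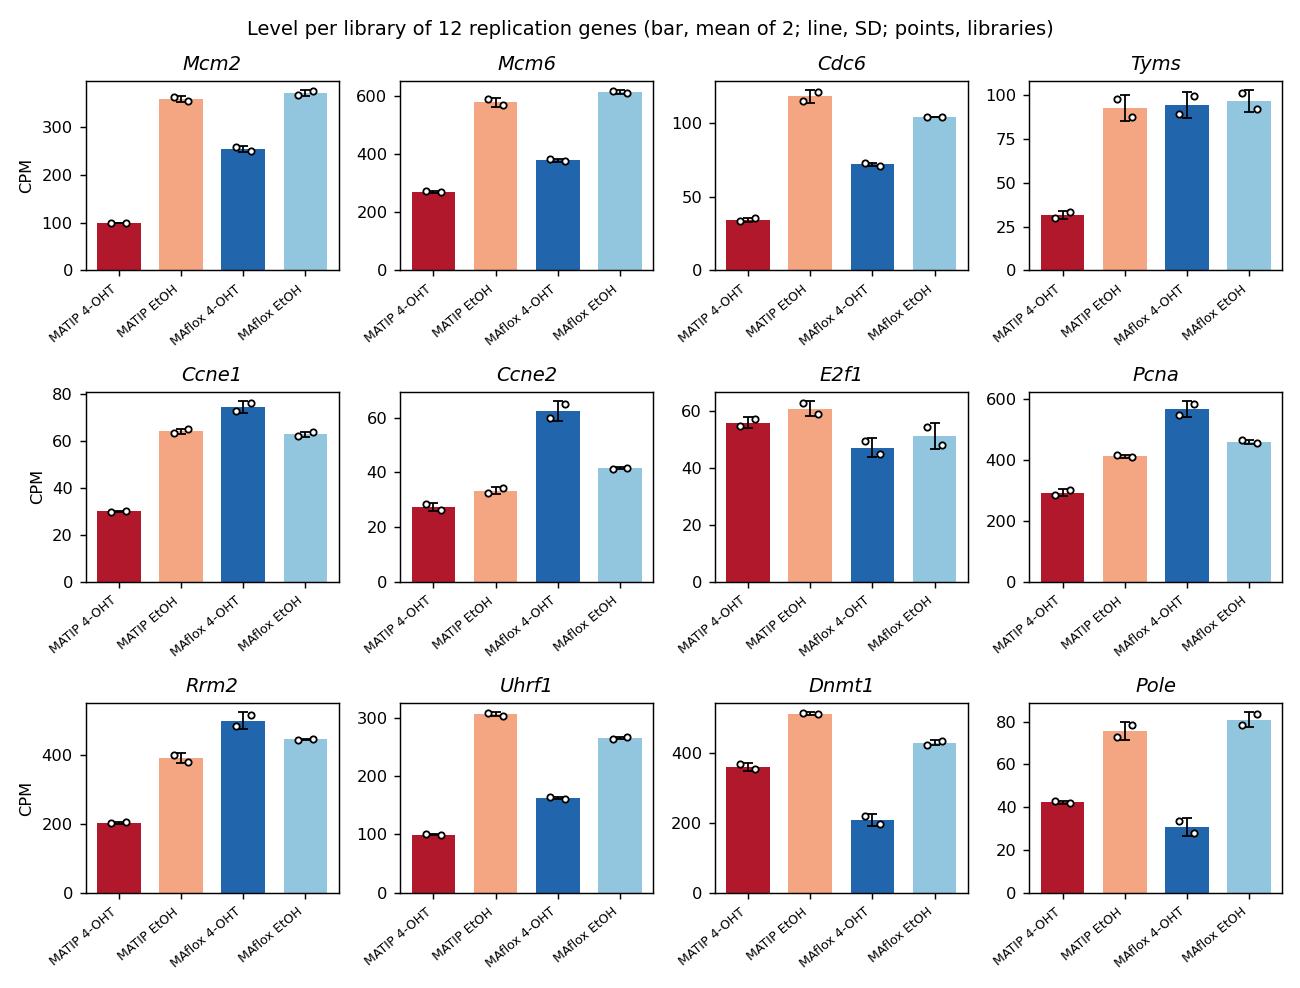
TMM-scaled level in CPM (y axis, each panel from 0) of 12 genes of the set in MATIP 4-OHT, MATIP EtOH, MAflox 4-OHT and MAflox EtOH libraries. Points are single libraries, and bars are group means with their SD (n = 2). Mcm2 lies at 98.4 to 98.6 CPM in MATIP 4-OHT libraries and at 249 CPM or more in the other 6.

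The factors that load and switch on the helicase also fell together in MATIP cells, 6 of 6 and each by at least 2-fold as reported. Of all genes 14.1% were lower by that much. Over other settings the log2 fold change reached -0.87 for Cdc45 and -0.92 for Gins1, short of 2-fold. Cdc6, the loading ATPase, had 33.2 and 35.2 CPM in MATIP 4-OHT cells and 115 and 121 CPM in MATIP EtOH cells, and 72.7 and 71.0 CPM in MAflox 4-OHT cells and 104 and 104 CPM in MAflox EtOH cells. Its log2 fold change was -1.79 ± 0.06 in MATIP cells and -0.53 ± 0.06 in MAflox cells, and the difference of -1.25 ± 0.09 had an adjusted p of 3.7e-10 (edgeR, Benjamini-Hochberg). Cdt1, which brings the MCM ring to the origin with Cdc6, had 52.5 and 52.8 CPM in MATIP 4-OHT cells and 125 and 119 CPM in MATIP EtOH cells, and 60.3 and 53.8 CPM in MAflox 4-OHT cells and 107 and 104 CPM in MAflox EtOH cells. Unlike Cdc6, Cdt1 thus reached nearly the same level in both 4-OHT groups. Its log2 fold changes were -1.21 ± 0.07 in MATIP cells and -0.89 ± 0.07 in MAflox cells. The difference, -0.32 ± 0.09 (adjusted p = 0.00543), was not called under upper-quartile scaling (adjusted p = 0.0932) or without MAflox 4-OHT replicate 1 (adjusted p = 0.0699).

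Mcm10, a factor needed to start the activated helicase, had log2 fold changes of -1.59 ± 0.06 in MATIP cells and -0.80 ± 0.06 in MAflox cells. Cdc45 and the GINS subunits are the partners of the MCM ring in the moving helicase. Cdc45 had 59.3 and 60.0 CPM in MATIP 4-OHT cells and 120 and 122 CPM in MATIP EtOH cells, and 108 and 114 CPM in MAflox 4-OHT cells and 122 and 122 CPM in MAflox EtOH cells. Its log2 fold change was -1.02 ± 0.06 in MATIP cells and -0.14 ± 0.06 in MAflox cells (adjusted p = 0.0409, edgeR with Benjamini-Hochberg adjustment). Gins1 had 16.0 and 19.2 CPM in MATIP 4-OHT cells and 39.2 and 35.9 CPM in MATIP EtOH cells, and 33.7 and 36.0 CPM in MAflox 4-OHT cells and 41.4 and 39.0 CPM in MAflox EtOH cells. The MAflox call of Gins1 was likewise close to the threshold (log2 fold change -0.21 ± 0.09, adjusted p = 0.0494), and both it and that of Cdc45 missed the adjusted threshold in the authors' deposited table. The Gins1 call was lost without any 1 of the 4 MAflox libraries, and the Cdc45 call without MAflox EtOH replicate 1 or 2, MAflox 4-OHT replicate 1 or either MATIP 4-OHT library (adjusted p up to 0.252 and 0.236). With the length and GC correction both MAflox values were larger in size, -0.70 for Gins1 (adjusted p = 2.24e-07, edgeR with Benjamini-Hochberg adjustment) and -0.41 for Cdc45 (adjusted p = 1.06e-06), and the Gins1 difference between the lines was -0.46 in place of -0.88. Gins2 was not called in MAflox cells (0.03 ± 0.08) and was lower in MATIP cells (-1.15 ± 0.09), and 2758 of its exon bases overlap Gse1 on the opposite strand. Cdc45 shares 209 exon bases with Ufd1 on the opposite strand.

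The genes of S-phase entry gave 2 lower calls in MATIP cells and 2 higher calls in MAflox cells. Ccne1 and Ccne2 encode cyclin E, which activates Cdk2 at the start of S phase. Ccne1 had 29.8 and 30.2 CPM in MATIP 4-OHT cells and 63.3 and 65.0 CPM in MATIP EtOH cells, and 72.8 and 76.3 CPM in MAflox 4-OHT cells and 62.2 and 63.7 CPM in MAflox EtOH cells. It was lower with 4-OHT in MATIP cells (-1.10 ± 0.07) and higher in MAflox cells (0.24 ± 0.06), where a correction for transcript length and GC content brought the value to -0.02 (adjusted p = 0.771). Ccne2 had 28.3 and 26.1 CPM in MATIP 4-OHT cells and 32.3 and 34.2 CPM in MATIP EtOH cells, and 59.7 and 64.9 CPM in MAflox 4-OHT cells and 41.3 and 41.7 CPM in MAflox EtOH cells. Its log2 fold change was 0.58 ± 0.07 in MAflox cells (adjusted p = 1.19e-06, edgeR with Benjamini-Hochberg adjustment), the highest of the 28 genes. In MATIP cells it was -0.29 ± 0.08 (adjusted p = 0.00224), a call lost under upper-quartile scaling (-0.14, adjusted p = 0.0965) or without MATIP 4-OHT replicate 2 (-0.20, adjusted p = 0.0680). With the length and GC correction Ccne2 had 0.28 in MAflox cells and -0.17 in MATIP cells, and its difference between the lines was -0.45 in place of -0.88. Its exons share 609 bases with Ints8 on the opposite strand.

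E2f1, a transcription factor that drives many replication genes, was the 1 member called in neither line as reported. It had 54.6 and 57.3 CPM in MATIP 4-OHT cells and 62.7 and 59.0 CPM in MATIP EtOH cells, and 49.4 and 44.8 CPM in MAflox 4-OHT cells and 54.4 and 48.0 CPM in MAflox EtOH cells. The log2 fold change was -0.12 ± 0.08 in each line (adjusted p = 0.158 in MATIP and 0.188 in MAflox, edgeR with Benjamini-Hochberg adjustment). The difference of the lines was 0.00 with a 95% interval from -0.23 to 0.23, so a change of the size seen in Mcm2 lies outside it. With the length and GC correction E2f1 was called lower in MATIP cells (-0.32, adjusted p = 0.000428). With scaling by library total alone it was called lower in both lines, at -0.25 in MATIP cells (adjusted p = 0.00617, edgeR with Benjamini-Hochberg adjustment) and -0.29 in MAflox cells (adjusted p = 0.00306). The count of E2f1 over that of Mcm2 was 0.553 and 0.582 in MATIP 4-OHT libraries and 0.173 and 0.167 in MATIP EtOH libraries, and 0.191 and 0.180 in MAflox 4-OHT libraries and 0.148 and 0.128 in MAflox EtOH libraries.

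At the fork, Pola1, Fen1 and Pcna were lower in MATIP relative to MAflox cells, and Pole was higher. Pola1, the catalytic subunit of the polymerase that lays primers, had 34.4 and 32.9 CPM in MATIP 4-OHT cells and 101 and 102 CPM in MATIP EtOH cells, and 51.5 and 59.0 CPM in MAflox 4-OHT cells and 105 and 108 CPM in MAflox EtOH cells. Its log2 fold changes were -1.60 ± 0.07 in MATIP cells and -0.95 ± 0.07 in MAflox cells. Pole, the catalytic subunit of the leading-strand polymerase, had 42.8 and 41.7 CPM in MATIP 4-OHT cells and 72.8 and 78.6 CPM in MATIP EtOH cells, and 33.7 and 27.7 CPM in MAflox 4-OHT cells and 78.4 and 83.3 CPM in MAflox EtOH cells. It fell in both lines, by 1.79-fold in MATIP cells and 2.63-fold in MAflox cells, and the difference of 0.55 ± 0.11 (adjusted p = 0.00035, edgeR with Benjamini-Hochberg adjustment) became -0.13 (adjusted p = 0.272) after the length and GC correction. The ratio of Pole to Pola1 was 1.24 and 1.27 in MATIP 4-OHT libraries and 0.718 and 0.770 in MATIP EtOH libraries, and 0.654 and 0.470 in MAflox 4-OHT libraries and 0.749 and 0.771 in MAflox EtOH libraries. That ratio is uncorrected, and with the correction the MAflox log2 fold changes of Pole and Pola1 were -1.02 and -0.87.

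Pcna, the sliding clamp, had 283 and 299 CPM in MATIP 4-OHT cells and 415 and 407 CPM in MATIP EtOH cells, and 547 and 584 CPM in MAflox 4-OHT cells and 463 and 453 CPM in MAflox EtOH cells. The 2 lines moved in opposite directions around similar EtOH levels, with log2 fold changes of -0.50 ± 0.06 in MATIP cells and 0.30 ± 0.06 in MAflox cells, though the MAflox value turned to -0.16 (adjusted p = 0.00592, edgeR with Benjamini-Hochberg adjustment) after the length and GC correction. The difference was -0.80 ± 0.08, and -0.41 with that correction. The ratio of Pcna to Mcm2 was 2.87 and 3.04 in MATIP 4-OHT libraries and 1.14 and 1.15 in MATIP EtOH libraries, and 2.12 and 2.35 in MAflox 4-OHT libraries and 1.26 and 1.21 in MAflox EtOH libraries. That ratio was higher with 4-OHT in both lines. Pcna has processed pseudogenes whose reads counting could mix with its own. Fen1, which removes the RNA flaps of lagging-strand fragments, had log2 fold changes of -1.32 ± 0.06 in MATIP cells and -0.47 ± 0.05 in MAflox cells, and 1909 of its exon bases lie opposite the antisense gene Gm10143.

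**Figure D3:**
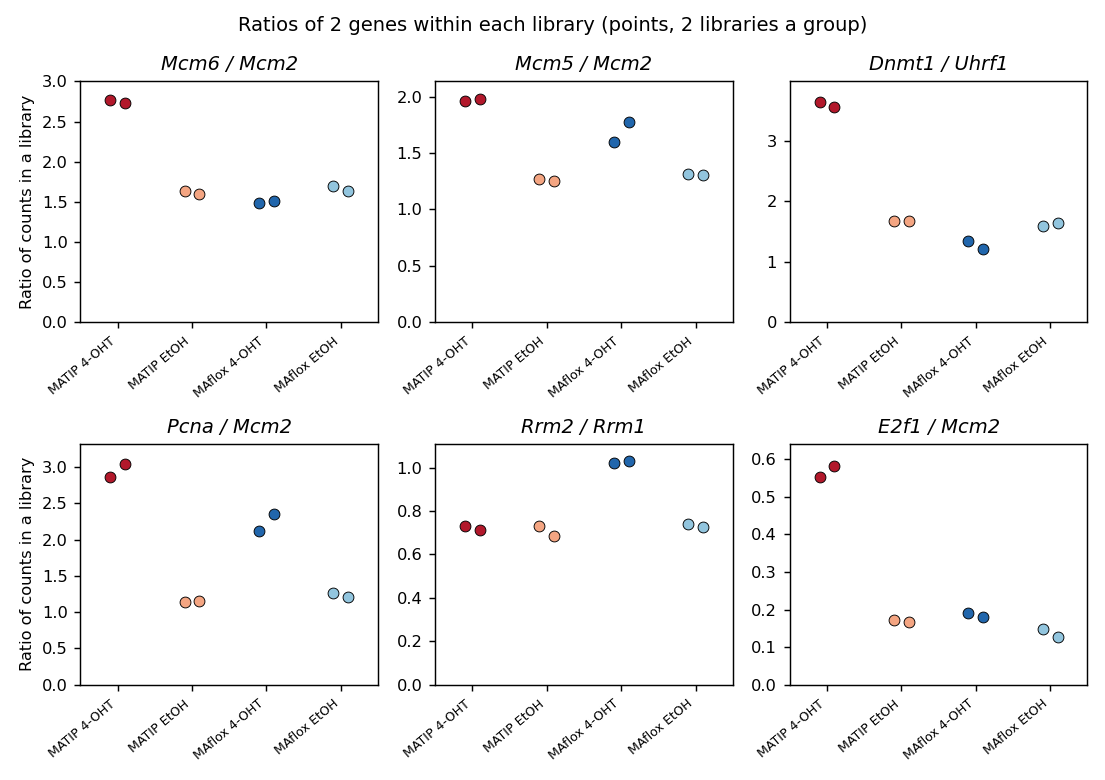
Ratio of the counts of 2 genes within each library (y axis, each panel from 0) in MATIP 4-OHT, MATIP EtOH, MAflox 4-OHT and MAflox EtOH libraries, with 1 point per library. Mcm6 over Mcm2 reaches 2.73 and 2.77 in MATIP 4-OHT libraries and lies between 1.48 and 1.69 in the other 6, whereas Rrm2 over Rrm1 is highest in MAflox 4-OHT libraries. The ratios are not corrected for transcript length and GC content.

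Among the genes of nucleotide supply, Rrm1 and Rrm2 encode the subunits of ribonucleotide reductase. Rrm1, the large subunit, had 276 and 285 CPM in MATIP 4-OHT cells and 545 and 553 CPM in MATIP EtOH cells, and 472 and 501 CPM in MAflox 4-OHT cells and 600 and 616 CPM in MAflox EtOH cells. Rrm2, the small subunit, had 201 and 204 CPM in MATIP 4-OHT cells and 400 and 379 CPM in MATIP EtOH cells, and 482 and 516 CPM in MAflox 4-OHT cells and 443 and 446 CPM in MAflox EtOH cells. In MATIP cells Rrm1 fell by 1.96-fold and Rrm2 by 1.93-fold. In MAflox cells Rrm1 was lower (-0.32 ± 0.05) and Rrm2 higher (0.17 ± 0.05), but the Rrm2 value was -0.01 when libraries were scaled by total alone and -0.15 after the length and GC correction, with which Rrm1 had -0.20 and both were called lower. The Rrm2 call was also lost without MAflox EtOH replicate 1 or 2 or MAflox 4-OHT replicate 2 (adjusted p = 0.0606 to 0.0771, edgeR with Benjamini-Hochberg adjustment). The ratio of Rrm2 to Rrm1 was 0.729 and 0.713 in MATIP 4-OHT libraries and 0.733 and 0.687 in MATIP EtOH libraries, and 1.02 and 1.03 in MAflox 4-OHT libraries and 0.739 and 0.725 in MAflox EtOH libraries.

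Tyms, thymidylate synthase, had the most negative difference between the lines of the 28 genes. It had 29.9 and 33.4 CPM in MATIP 4-OHT cells and 97.9 and 87.3 CPM in MATIP EtOH cells, and 89.3 and 99.6 CPM in MAflox 4-OHT cells and 101 and 92.2 CPM in MAflox EtOH cells. The MAflox groups overlapped and the MATIP groups did not. The log2 fold change was -1.55 ± 0.08 in MATIP cells and -0.03 ± 0.08 in MAflox cells, with a difference of -1.51 ± 0.11 (adjusted p = 7.59e-10, edgeR with Benjamini-Hochberg adjustment). A processed pseudogene of Tyms is annotated. Ung, which removes uracil from DNA, had 14.4 and 13.7 CPM in MATIP 4-OHT cells and 45.8 and 43.5 CPM in MATIP EtOH cells, and 35.0 and 34.9 CPM in MAflox 4-OHT cells and 41.9 and 43.8 CPM in MAflox EtOH cells. Its log2 fold changes were -1.67 ± 0.08 in MATIP cells and -0.30 ± 0.08 in MAflox cells.

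All 5 genes grouped under chromatin replication fell in MATIP cells. Uhrf1, which recognises hemimethylated DNA and recruits Dnmt1, had 100 and 98.6 CPM in MATIP 4-OHT cells and 308 and 303 CPM in MATIP EtOH cells, and 164 and 161 CPM in MAflox 4-OHT cells and 264 and 266 CPM in MAflox EtOH cells. Dnmt1, the maintenance DNA methyltransferase, had 367 and 352 CPM in MATIP 4-OHT cells and 514 and 509 CPM in MATIP EtOH cells, and 220 and 195 CPM in MAflox 4-OHT cells and 423 and 434 CPM in MAflox EtOH cells. Their order between the lines was opposite, Uhrf1 being lowest in MATIP 4-OHT cells and Dnmt1 in MAflox 4-OHT cells. The log2 fold changes of Uhrf1 were -1.62 ± 0.05 in MATIP cells and -0.71 ± 0.05 in MAflox cells. Those of Dnmt1 were -0.51 ± 0.06 in MATIP cells and -1.05 ± 0.06 in MAflox cells, and the difference of 0.54 ± 0.08 (adjusted p = 1.84e-05, edgeR with Benjamini-Hochberg adjustment) became -0.05 (adjusted p = 0.559) after the length and GC correction, with which Dnmt1 had -0.80 in MATIP cells and -0.75 in MAflox cells. The ratio of Dnmt1 to Uhrf1 was 3.65 and 3.57 in MATIP 4-OHT libraries and 1.67 and 1.68 in MATIP EtOH libraries, and 1.34 and 1.21 in MAflox 4-OHT libraries and 1.60 and 1.64 in MAflox EtOH libraries. That ratio is uncorrected, and with the correction Uhrf1 had -1.78 in MATIP cells and -0.67 in MAflox cells.

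Chaf1a and Chaf1b, subunits of the histone chaperone CAF-1, differed in MAflox cells. Chaf1a had 70.8 and 73.9 CPM in MATIP 4-OHT cells and 188 and 167 CPM in MATIP EtOH cells, and 82.2 and 74.5 CPM in MAflox 4-OHT cells and 146 and 143 CPM in MAflox EtOH cells. Chaf1b had 30.1 and 27.7 CPM in MATIP 4-OHT cells and 63.4 and 67.1 CPM in MATIP EtOH cells, and 61.7 and 67.0 CPM in MAflox 4-OHT cells and 63.6 and 63.9 CPM in MAflox EtOH cells. Both fell in MATIP cells, with log2 fold changes of -1.29 ± 0.07 (Chaf1a) and -1.18 ± 0.07 (Chaf1b), whereas in MAflox cells Chaf1a was lower (-0.88 ± 0.07) and Chaf1b was not called (0.01 ± 0.07). With the length and GC correction Chaf1a had -0.46 and Chaf1b -0.12 in MAflox cells, and the difference between the lines for Chaf1a was -1.18 in place of -0.41. The exons of Chaf1a share 4648 bases with Ubxn6 on the opposite strand, and those of Slbp share 474 with Gm10459. Slbp, which binds the stem-loop of histone transcripts, had 75.9 and 77.4 CPM in MATIP 4-OHT cells and 139 and 132 CPM in MATIP EtOH cells, and 145 and 155 CPM in MAflox 4-OHT cells and 136 and 125 CPM in MAflox EtOH cells. It was lower in MATIP cells (-0.82 ± 0.06) and higher in MAflox cells (0.20 ± 0.06), where the length and GC correction brought it to 0.00 (adjusted p = 0.971, edgeR with Benjamini-Hochberg adjustment) and the call was lost without MAflox EtOH replicate 2 (adjusted p = 0.116).

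Across the set, 19 genes were lower in both lines, against 21.2% of all genes, and 5 were higher in MAflox and lower in MATIP cells, against 6.92%. These 5 were Ccne1, Ccne2, Pcna, Rrm2 and Slbp. A further 3, Tyms, Gins2 and Chaf1b, were lower in MATIP cells and not called in MAflox cells. The largest gap between 2 libraries of a group was 0.28 on the log2 scale (Pole). In the authors' deposited table all 28 genes had the same sign as here in both lines, with 27 passing its adjusted threshold as lower in MATIP cells and 17 lower and 5 higher in MAflox cells.

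Within the set, longer transcripts tended to have lower MAflox values. Over the 28 genes the Spearman rho between log2 fold change and the length of the longest annotated transcript was -0.64 in MAflox cells and -0.27 in MATIP cells, and over 13195 genes with a length it was -0.26 and 0.05. The points share the same libraries and are genes, not replicates. The longest of them, Chaf1a, Pole, Dnmt1, Rrm1 and Pola1 at 5346 to 7698 bases, were all lower in MAflox cells, while Pcna (1518 bases), Ccne1 (2000) and Rrm2 (2193) were higher. Gins1, the shortest at 1087 bases, was lower, as were Cdc45 (2143) and Fen1 (2373). Ccne2 (3006) and Slbp (2922), which are longer than these, were higher. With the length and GC correction the MAflox calls were 21 lower and 1 higher (Ccne2, 0.28, adjusted p = 0.00126, edgeR with Benjamini-Hochberg adjustment). What links length to the MAflox response was not tested.

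**Figure D4:**
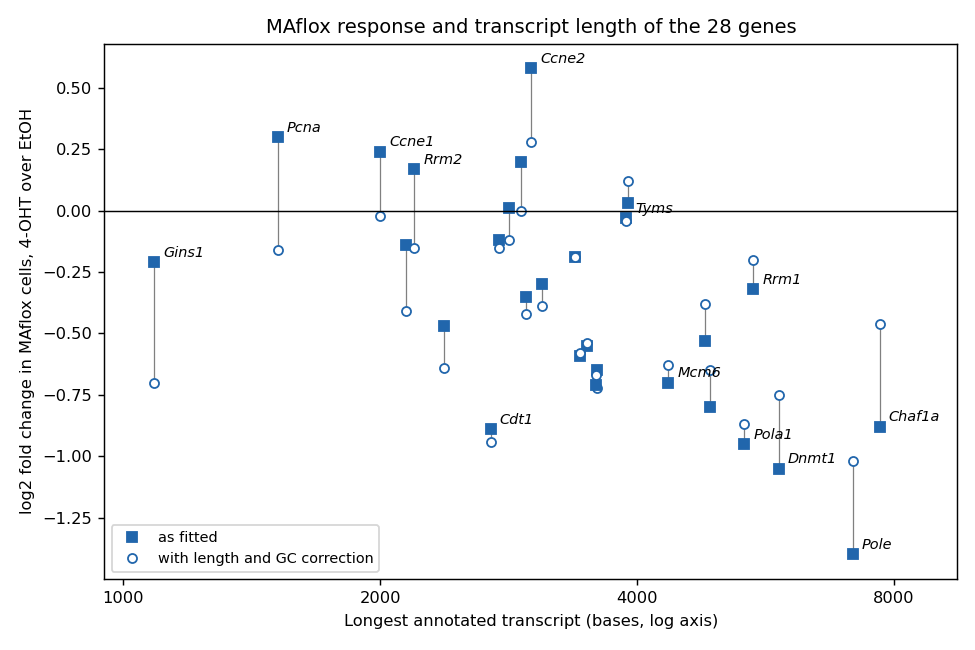
Log2 fold change in MAflox cells with 4-OHT over EtOH (y axis) against the longest annotated transcript in bases (x axis, log) for the 28 genes, as fitted (squares) and with the length and GC correction (open circles), joined by a line per gene. Pcna, Ccne1 and Rrm2 lie above 0 as fitted, as do the longer Ccne2 and Slbp. The long transcripts such as Pole lie below, while Gins1, the shortest, also lies below, as do Cdc45 and Fen1.

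Each of the 9 genes with a match was called lower in each line, as were 21.2% of all genes. The 9 genes had a median log2 fold change of -1.51 in MATIP cells and -0.70 in MAflox cells. The 14 genes with a window but no match had medians of -1.14 and -0.13. Of these 14, all but E2f1 were called lower in MATIP cells. Mcm2, Mcm10, Cdc45, Rrm1, Ung, Chaf1a and Fen1 among them were called lower in both lines. The 14 include E2f1, whose stretch before the start site (chr2:154569427-154569676) lies inside the annotated gene, which begins at 154569892 on the minus strand. The bases before the annotated start of E2f1 were thus not searched. Mcm2, with none of these letters in the stretch printed above, had the lowest MATIP value, and Dnmt1, with a match, had one of the least negative. The groups with and without a match were not tested against each other.

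A wider list held 95 further genes of replication and its control, chosen with earlier results known. It includes inhibitors such as Cdkn1a and Gmnn. In MATIP cells 80 of the 95 were lower and 8 higher. In MAflox cells 46 were lower and 20 higher, and the difference was lower for 69 and higher for 7. Over all tested genes 38.6% were lower and 37.5% higher in MATIP cells, and 32.1% and 33.1% in MAflox cells. For the difference the shares were 33.6% and 28.3%. These shares are the background for each list below. Of 19 origin licensing and firing genes, 16 were lower and 1 higher in MATIP cells and 7 and 2 in MAflox cells. Orc2, a subunit of the origin recognition complex, had log2 fold changes of -1.46 in MATIP cells and -0.59 in MAflox cells. Recql4, a helicase of origin firing, had -1.52 in MATIP cells and -1.15 in MAflox cells. Gmnn, which encodes the Cdt1 inhibitor geminin, had -0.96 in MATIP cells and 0.36 in MAflox cells, a difference of -1.32.

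Of 32 other polymerase and fork genes, 29 were lower and 1 higher in MATIP cells and 14 and 6 in MAflox cells. Timeless and Tipin encode partners in the fork protection complex. Timeless had log2 fold changes of -1.04 in MATIP cells and -1.01 in MAflox cells. Tipin had -2.01 in MATIP cells and -0.01 in MAflox cells, where it was not called. Of 11 nucleotide supply genes, 8 were lower and 3 higher in MATIP cells and 5 and 3 in MAflox cells. Tk1, thymidine kinase, had log2 fold changes of -2.64 in MATIP cells and 0.11 in MAflox cells, where it was not called. Dck, deoxycytidine kinase, had -0.31 in MATIP cells and 0.80 in MAflox cells. All 13 other chromatin replication genes were lower in MATIP cells, and 10 were lower and 2 higher in MAflox cells. 2810417H13Rik had log2 fold changes of -2.14 in MATIP cells and -0.21 in MAflox cells. Supt16, a subunit of the histone chaperone FACT, had -1.04 in MATIP cells and -1.02 in MAflox cells.

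Of 20 genes of E2F and RB control, 14 were lower and 3 higher in MATIP cells and 10 and 7 in MAflox cells. E2f2, a close relative of E2f1, had 336 and 328 CPM in MATIP 4-OHT cells and 16.9 and 23.5 CPM in MATIP EtOH cells, and 77.6 and 72.7 CPM in MAflox 4-OHT cells and 21.7 and 22.6 CPM in MAflox EtOH cells. Both lines rose, and the log2 fold change of 4.03 ± 0.10 in MATIP cells exceeded the 1.76 ± 0.10 of MAflox cells by 2.27 ± 0.14 (adjusted p = 5.4e-11, edgeR with Benjamini-Hochberg adjustment). Cdkn1a, the cyclin-dependent kinase inhibitor p21, rose in both lines, by 1.74 ± 0.10 in MATIP and 1.76 ± 0.10 in MAflox cells. Cdk2, the partner of cyclin E, was lower in MATIP cells (-1.12 ± 0.06) and higher in MAflox cells (0.57 ± 0.06).

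Histone genes were called in both directions in MATIP cells. The 67 symbols beginning with Hist1h, Hist2h or Hist3h were chosen after values were seen, and 49 of them were tested. Of these, 12 were higher and 13 lower in MATIP cells, and 5 were higher and 44 not called in MAflox cells by the edgeR test. Over all tested genes 37.5% were higher and 38.6% lower in MATIP cells, and 33.1% and 32.1% in MAflox cells. Tested histone symbols were thus called less often than genes at large, in both directions. Of the 67 symbols, 11 to 17 were at 0 in a given library, and the part of low counts in this was not tested. Their summed level was 224 and 238 CPM in MATIP 4-OHT libraries and 42.0 and 41.9 CPM in MATIP EtOH libraries, and 69.9 and 74.7 CPM in MAflox 4-OHT libraries and 54.4 and 50.7 CPM in MAflox EtOH libraries. Hist1h2bc alone had 102 and 112 CPM in MATIP 4-OHT libraries and 2.57 and 1.49 CPM in MATIP EtOH libraries. Whether libraries were made from polyadenylated RNA, which most S-phase histone transcripts lack, is not stated.

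**Figure D5:**
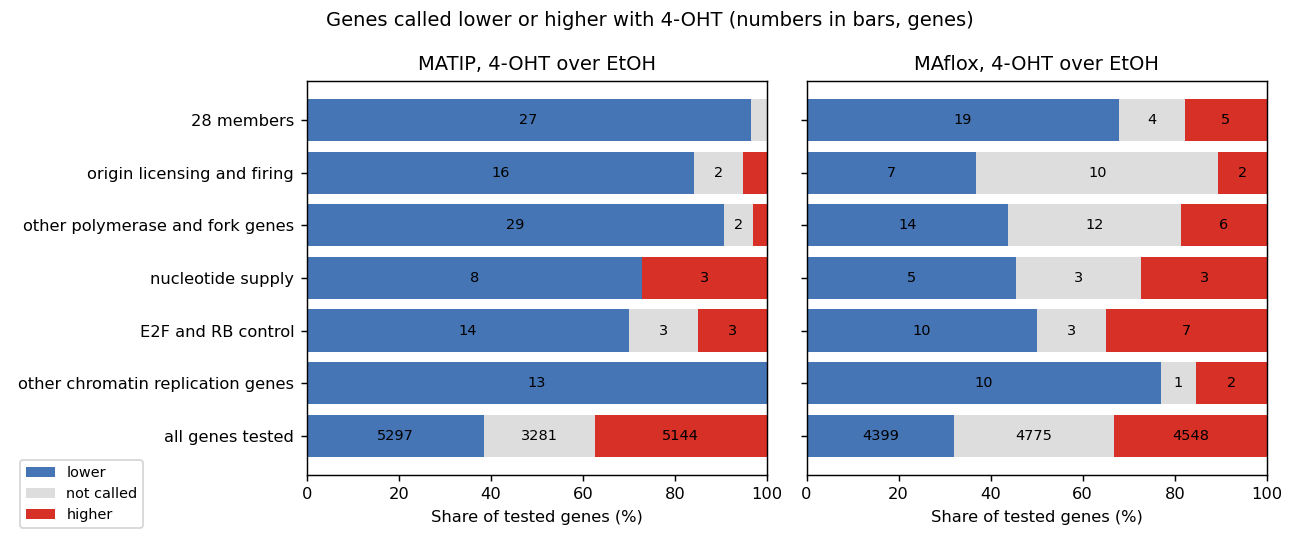
Share of tested genes in percent (x axis) called lower, not called or called higher with 4-OHT over EtOH for the 28 genes, 5 lists of related genes and all tested genes (rows), in MATIP cells (left panel) and MAflox cells (right panel), with gene numbers in the bars. The lower share is 38.6% of all genes in MATIP cells and 32.1% in MAflox cells, while 27 and 19 of the 28 genes were lower.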

How the data were processed

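RNA-seq libraries from 2 lines of mouse MLL-AF10 bone marrow cells were compared with and without 4-OHT, grouped by the sample titles. The authors deposited whole-number read counts per gene symbol, not normalized, 1 column per library. The submitters' processing notes name Trimmomatic 0.38.0, HISAT2 2.1.0, featureCounts 1.6.4, DESeq2 and the mm10 build. The sources used here name neither the strand setting, nor the annotation, nor how multiply mapping reads were counted. The authors also deposited log2 fold changes of 4-OHT against EtOH in each line, with adjusted p-values for them.

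Genes were kept by edgeR's filterByExpr (minimum count 10, minimum total 15), scaled by TMM (factors 0.939 to 1.07) and tested with edgeR 4.0.16 (R 4.3.3) by the quasi-likelihood test over all 8 libraries in 4 groups, with 4 residual degrees of freedom and Benjamini-Hochberg adjustment over all 13722 tested genes. The direction of the authors' values was checked against the counts. Alternatives were DESeq2 1.42.0, other scalings and filters, each line alone, each library left out, a replicate block, and a spline correction for transcript length and GC content. The procedure was also run on simulated data in which few genes changed, in the MATIP 4-OHT group only. That run did not test the scaling where many genes change. Gene positions, transcript lengths and exon overlaps came from GENCODE M21 and promoter windows from RefSeq. The depth of 41101309 to 57312490 counts gave replicates of 1 group that differed by more than sampling noise, so no library was merged with another.

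The 28 genes, the wider gene lists and the markers were chosen with earlier results of these data known, so counts over them describe and carry no test of their own. Named genes are all 28 members and, for each wider list, the called gene with the smallest p in each comparison (both responses and their difference). Cdkn1a, the ratios and the printed promoters were chosen after values were seen.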

Additional observations from a re-analysis of the deposited data

Results flagged for a closer look

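The response to 4-OHT differed between MATIP and MAflox cells for 27 of the 28 genes, by the edgeR test of the difference itself with Benjamini-Hochberg adjustment (33.6% of all genes were called lower and 28.3% higher). Values are the log2 fold change in MATIP cells minus that in MAflox cells. For the helicase subunits they were -1.31 (Mcm2), -0.92 (Mcm3), -0.73 (Mcm4), -1.03 (Mcm5), -0.40 (Mcm6) and -1.29 (Mcm7). For the loading and activating factors they were -0.79 (Mcm10), -1.25 (Cdc6), -0.88 (Cdc45), -0.32 (Cdt1), -0.88 (Gins1) and -1.18 (Gins2). The cyclin E genes had -1.34 (Ccne1) and -0.88 (Ccne2). At the fork the values were -0.80 (Pcna), -0.65 (Pola1), -0.85 (Fen1) and 0.55 (Pole). For nucleotide supply and uracil repair they were -0.65 (Rrm1), -1.11 (Rrm2), -1.51 (Tyms) and -1.37 (Ung). For chromatin replication they were -1.02 (Slbp), -0.41 (Chaf1a), -1.19 (Chaf1b), -0.91 (Uhrf1) and 0.54 (Dnmt1). Pole and Dnmt1 were the only members with a positive called difference in the fit as reported.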

How the results depend on the processing

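With each library left out in turn, the number of the 28 genes called lower was 26 to 27 in MATIP cells (27 as reported), 16 to 19 in MAflox cells (19) and 24 to 25 for the difference of responses (25). The other settings gave 26 to 28, 17 to 21 and 24 to 25. The number called higher in MAflox cells (5) was 3 to 5 with a library left out, 2 with library size only and 1 with the length and GC correction. The number called higher for the difference (2) was 0 with that correction. Between MATIP EtOH and MAflox EtOH cells, the 6 higher and 5 lower calls became 3 to 5 and 1 to 5 with a library left out and 3 and 8 with the correction, and the higher calls became 2 with upper-quartile factors. Among values called as reported, signs turned for Rrm2 in MAflox cells with library size only (-0.01). With the correction they turned for Ccne1 (-0.02), Pcna (-0.16) and Rrm2 (-0.15) in MAflox cells and for Pole (-0.13) and Dnmt1 (-0.05) in the difference. Values not called also crossed 0 over the alternatives, such as E2f1 in MATIP cells (-0.32 to 0.03) and Tyms in MAflox cells (-0.21 to 0.05). The cause was not tested.

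Libraries with the same replicate number did not deviate together (correlations of -0.0391 in MATIP, -0.0023 in MAflox and 0.0339 between the EtOH groups). Whether they came from the same culture is not stated, and 2 pairs per comparison cannot decide it. With a replicate block the calls were 27 lower in MATIP cells, 17 lower and 5 higher in MAflox cells and 25 lower and 2 higher for the difference. The MAflox calls of Cdc45 (-0.14) and Gins1 (-0.21) were lost. With the replicate block and the correction together, 1 gene was higher in MAflox cells, 0 were higher for the difference, and 3 were higher and 8 lower between the EtOH groups. Values there were -0.02 (Ccne1), -0.16 (Pcna), -0.15 (Rrm2), -0.12 (Pole) and -0.05 (Dnmt1).

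The median of all genes in MATIP cells shifted to 0.14 with DESeq2, 0.15 with upper-quartile factors, -0.13 with library size only and -0.12 with the correction, where the 28 genes had medians of -1.12, -1.05, -1.33 and -1.35. Every member had 13.7 CPM or more in every library, so that the spread between 2 libraries limits small changes more than depth does.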
